A study of Mus musculus with 16 samples.

Results

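Neonatal myocardial infarction (MI) was compared with sham surgery in lymphatic endothelial cells of the mouse heart, 3 days after the operation. The comparison takes the 4 MI P1 libraries against the 4 sham P1 libraries of a series of 16, over all 15895 genes listed, and again after leaving out any library with reads on fewer than 10000 genes. All 8 libraries came from CD1 pups operated on at postnatal day 1 (P1), and the sham pups had the same procedure without the infarction. Ventricles were minced, pooled in groups of 6 per stirrer and digested, heart muscle cells were removed on a Percoll gradient, and cells negative for CD45 and positive for CD31 and podoplanin were sorted. The other 8 libraries are sham and MI hearts of adult males operated on at day 56 (P56). The labels give no sex for the pups and do not say whether the libraries of a group came from separate pools, so each p-value measures the spread between these libraries.

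Lymphatic capillaries of the heart drain fluid and immune cells, and their endothelium is specified by the transcription factor Prox1 and grows in response to VEGF-C acting on its receptor Flt4. The heart of a newborn mouse can regrow muscle after an infarction, an ability that is lost within days of birth, whereas the adult heart forms a scar. Which transcripts of the lymphatic endothelium differ after an infarction at the regenerating age is the question of the comparison.

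The 8 libraries were not alike in content. The 4 MI libraries had a read on 15550 to 15821 genes, and sham libraries 3 and 5 on 15741 and 15549. Sham libraries 1 and 2 had a read on 9451 and 7939 genes and are the neonatal libraries under 10000. Uqcrc1, which encodes a core protein of the mitochondrial cytochrome bc1 complex, took 98.6% of the reads of sham library 2, 47.3% of sham library 5 and 18.1% of sham library 1, against 0.0930% to 4.11% in the MI libraries and 0.232% in sham library 3. The libraries held 19625540 to 43837520 reads on the genes listed, and 3 reads equalled a value of 12.1 in sham library 2, 0.359 in sham library 1 and 0.0515 to 0.109 in the other 6. The number of genes with a read did not pass a two-sided exact permutation test between the groups (p = 0.0571, 0.143 after adjustment over 5 library measures, smallest possible p 0.0286). Across genes, sham libraries 3 and 5 correlated with r = 0.945 and the MI libraries among themselves with 0.929 to 0.962, while pairs that held sham library 1 or 2 gave 0.564 to 0.703. Values below are the deposited normalised values (CPM after TMM scaling between libraries), and "the 6 libraries" are sham 3 and 5 with MI 1, 2, 3 and 5.

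**Figure D1:**
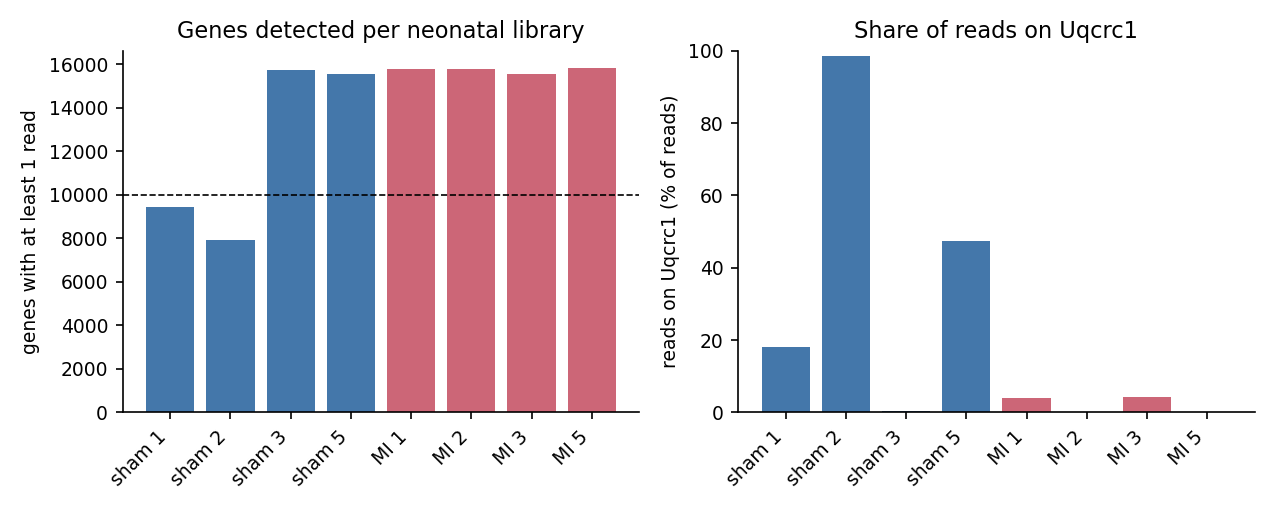
Number of genes with at least 1 read (left) and share of reads on Uqcrc1 in percent (right) for each neonatal library, sham in blue and MI in red; the dashed line marks 10000 genes. Sham libraries 1 and 2 lie under the line, and Uqcrc1 takes 98.6% of sham library 2 and 47.3% of sham library 5.

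The sorted cells carried the transcripts of lymphatic endothelium in both groups. Prox1 was at 439 and 303 in sham libraries 3 and 5 and at 224, 238, 376 and 516 in MI libraries 1, 2, 3 and 5. Flt4 was at 436 and 277 in sham and at 338, 367, 431 and 405 in MI, and the hyaluronan receptor gene Lyve1 at 757 and 591 against 363, 477, 657 and 515. The groups overlapped for each of these 3 genes. Pecam1, which encodes CD31, ran from 101 to 132 over the 6 libraries, and Pdpn, which encodes podoplanin, from 11.9 to 21.3. Ptprc, which encodes CD45, was at 0.506 and 0.109 in sham and at 1.26, 3.05, 0.0997 and 2.04 in MI. Of 15 lymphatic identity genes tested, 5 had a positive difference between MI and sham and 10 a negative one, with a median of -0.14 on the log2(value + 1) scale, which turned to 0.08 without sham library 3. Stab2, a scavenger receptor of lymphatic and sinusoidal endothelium, was the 1 member with every MI library on one side, at 3.44 to 6.30 against 10.7 and 8.55. Over all genes tested, 7.27% were lower in every MI library.

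No gene passed the test of MI P1 against sham P1. With limma on log2(value + 1) and Benjamini-Hochberg adjustment, 0 of 13243 genes were called at an adjusted p under 0.05 with all libraries and 0 of 13033 with the 6 libraries (0% in each direction), where the adult libraries shared the estimate of spread. The smallest adjusted p was 0.0744 and 0.0589. At an unadjusted p under 0.05 stood 1586 genes with all libraries, 1310 of them higher and 276 lower, against 485 with the 6 libraries, 302 higher and 183 lower. The quasi-likelihood test of edgeR on the recovered read counts called 0 genes in both sets. DESeq2 on the same counts called 12 higher and 250 lower with all libraries, and 6 higher and 1 lower with the 6. The median log2 difference over all genes was 0.39 with all libraries, where the 2 shallow libraries are both sham, and 0.02 with the 6, so values are given from the 6 libraries unless stated. In them, every MI library lay above both sham libraries for 1158 genes, or 8.89% of those tested, and below both for 948, or 7.27%; with all 8 libraries the counts were 619 (4.67%) and 91 (0.687%).

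Enpp2 was the gene nearest to the threshold. It encodes autotaxin, the secreted enzyme that makes lysophosphatidic acid, a lipid mediator, and lies on chromosome 15 at 54838898 to 54920146 (mm10, as all coordinates here). Its value was 6.77 and 5.51 in sham libraries 3 and 5 and 29.0, 22.7, 39.9 and 36.7 in MI libraries 1, 2, 3 and 5. Sham libraries 1 and 2 gave 3.23 and 20.2, so that every MI library lay above every one of the 4 sham libraries, library 2 closest. The log2 difference was 2.19 ± 0.34 (SE; limma adjusted p = 0.0589), and 1.98 ± 0.48 with all libraries (adjusted p = 0.416). DESeq2 gave an adjusted p of 4.7e-05 with the 6 libraries and edgeR 0.24. Among 19 alternatives for the 6 libraries, 8 called Enpp2 and none turned its sign. Of the other 12 tested genes of the autotaxin, lysophosphatidic acid and sphingosine 1-phosphate list, 1 was higher and 1 lower in every MI library. Over all genes these shares were 8.89% and 7.27%. Plpp1, a lipid phosphatase gene, was higher, by 0.26 ± 0.35. The lysophosphatidic acid receptor gene Lpar1 was lower, by -0.92 ± 0.53: it was at 21.5 and 39.8 in sham and 17.5, 21.0, 12.8 and 10.6 in MI, and the sphingosine 1-phosphate receptor gene S1pr1 at 27.3 and 17.0 against 32.6, 26.7, 34.5 and 27.7. The list's median was 0.06, and 0.01 to 0.19 with single libraries left out. With all 8 libraries the median was 0.95, beside 0.39 for all genes.

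Synpo2, which encodes the actin-binding protein synaptopodin 2 found in muscle (chromosome 3, 123076519 to 123236149), was at 2.11 and 0.906 in sham and at 16.3, 11.8, 9.50 and 6.64 in MI. It had no read in sham libraries 1 and 2, where 0 reads allow values up to 0.359 and 12.1. Its log2 difference was 2.24 ± 0.39 (limma adjusted p = 0.0888; DESeq2 4.7e-05). Transcripts of pericytes and smooth muscle, 11 genes tested, summed to 150.3 to 277 in sham and 162 to 355 in MI. Of these, 1 member, Mylk, was higher in every MI library, beside 8.89% of all genes. The part of these transcripts in the Synpo2 difference was not tested.

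Vwf encodes von Willebrand factor, the adhesive glycoprotein that endothelium and platelets store (chromosome 6, 125546774 to 125686679). It was at 1.48 and 1.52 in sham and at 21.6, 15.1, 10.8 and 6.77 in MI. Every MI library was higher than both sham libraries, by a log2 difference of 2.44 ± 0.48 (limma adjusted p = 0.22; DESeq2 6.6e-05). Sham library 2, at 16.2, overlapped the MI range. The platelet chemokine gene Ppbp was also higher in every MI library, at 4.09 and 0.217 in sham and 9.96, 10.98, 18.7 and 4.78 in MI. Ppbp was highest in MI library 3 and Vwf in MI library 1. Pf4, another platelet chemokine gene, was at 0.485 and 0.435 against 0.632, 1.25, 1.40 and 0.236. The 3 platelet genes in the table summed to 1.45 to 5.44 in sham and 5.97 to 23.6 in MI, and their part in the Vwf difference was not tested.

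Genes of the matrix stood at both ends. Col6a5, which encodes an alpha chain of collagen VI (chromosome 9, 105856078 to 105960643), was at 6.50 and 4.38 in sham and at 21.9, 19.6, 28.8 and 40.0 in MI, a log2 difference of 2.12 ± 0.51 (limma adjusted p = 0.664). Npnt, which encodes the integrin ligand nephronectin, was at 0.738 and 1.56 against 8.62, 5.06, 5.68 and 3.60. For both genes the MI libraries lay above all 4 sham libraries. Npnt had no read in sham library 2, where 1 read equals 4.04 and no read allows values up to 12.1. That library thus cannot place Npnt below the MI values of 3.60 to 8.62. On the lower side, Nov, which encodes the matricellular protein CCN3 (chromosome 15, 54745702 to 54754039, the same stretch of the chromosome as Enpp2), was at 23.4 and 61.4 in sham and at 13.5, 9.52, 9.42 and 9.69 in MI. Its log2 difference was -1.77 ± 0.34 (limma adjusted p = 0.22; DESeq2 3.1e-04), and sham libraries 1 and 2, at 97.1 and 20.2, were also above every MI library.

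Of the other genes with lower values in MI, Sema3c, a secreted semaphorin, was at 37.4 and 85.7 in sham and 22.4, 18.8, 21.8 and 15.1 in MI (log2 difference -1.51 ± 0.39, limma adjusted p = 0.757). Pcsk6, a proprotein convertase, was at 82.2 and 109.6 against 50.6, 42.4, 49.5 and 51.3. Ggcx, the carboxylase of vitamin K-dependent proteins, was at 33.4 and 35.6 against 12.9, 10.8, 13.7 and 25.6. The MI libraries were close together for Pcsk6, and for all 3 genes none reached the sham range. Antxr2, Adamtsl3, Slc10a1 and Rnaseh2a had log2 differences of -1.11, -1.46, -1.26 and -1.78 with no overlap, and none had a limma adjusted p under 0.558.

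**Figure D2:**
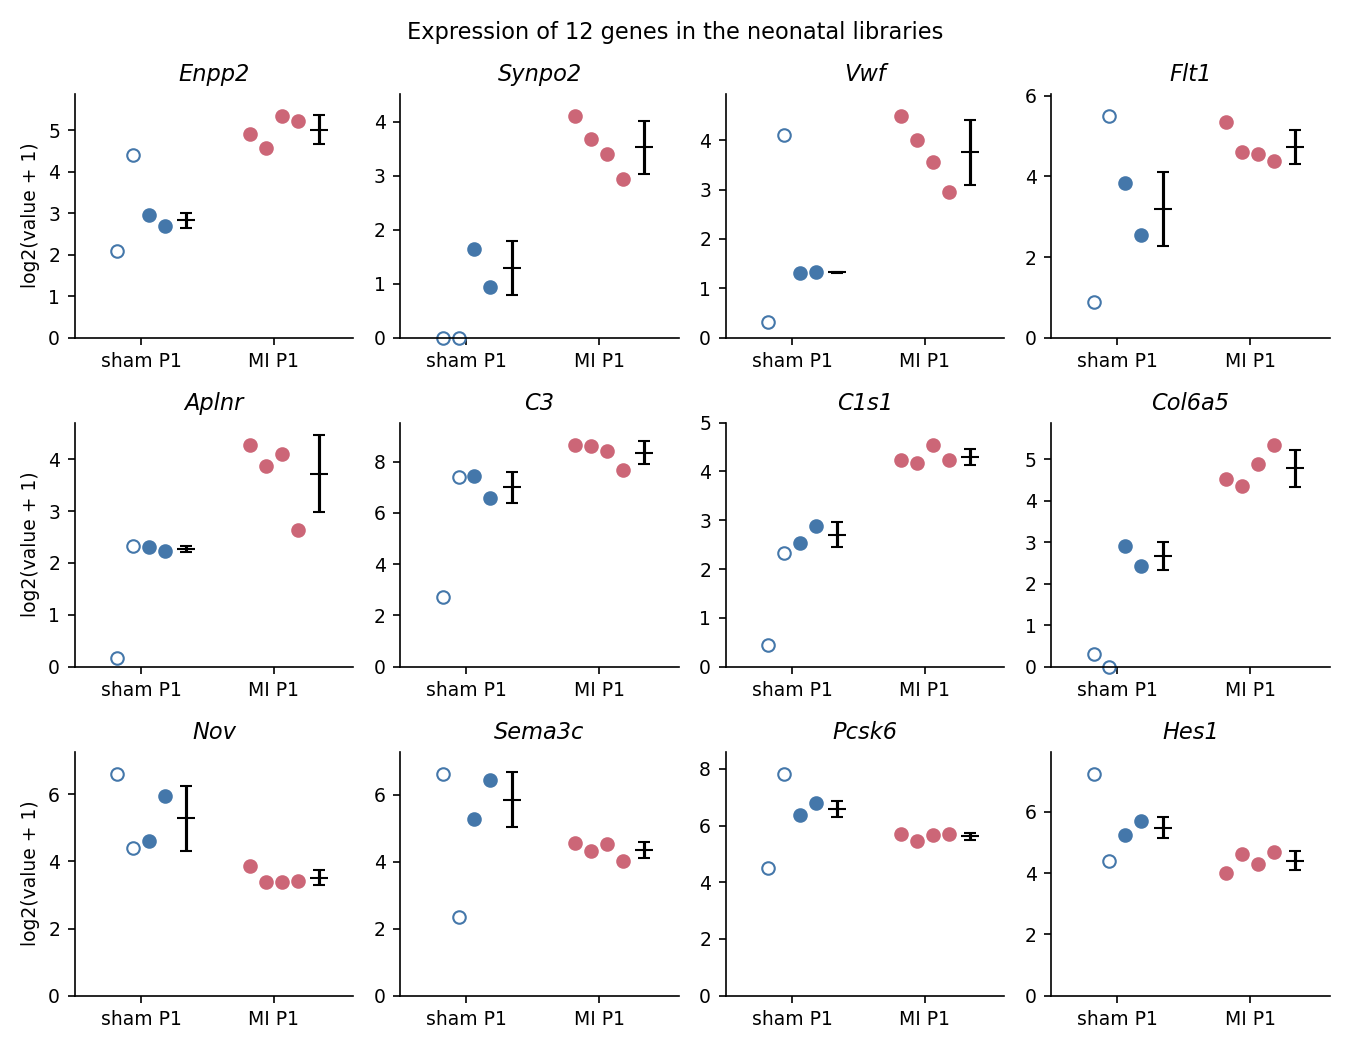
log2(value + 1) of 12 genes in the sham P1 (blue) and MI P1 (red) libraries, filled points for the 6 libraries with at least 10000 genes and open points for sham libraries 1 and 2; bars are the mean and SD of the filled points. The filled MI points lie above both filled sham points for the first 8 genes and below them for the last 4.

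Genes of blood vessel endothelium had higher values in MI. Of 24 tested, 22 had a positive difference and 10 were higher in every MI library than in both sham libraries, against 8.89% of all genes; none was called. The median log2 difference was 0.59 beside 0.02 for all genes, with 0.93 without sham library 3 and 0.43 without sham library 5. Flt1, a receptor of VEGF-A that also acts as a decoy (chromosome 5, 147561604 to 147726011), was at 13.4 and 4.85 in sham and 39.6, 23.3, 22.7 and 19.8 in MI, a log2 difference of 1.52 ± 0.36 (limma adjusted p = 0.664). Aplnr, the apelin receptor of sprouting and venous endothelium, was at 3.97 and 3.66 against 18.4, 13.7, 16.2 and 5.18. Sox17, an arterial transcription factor, was at 1.24 and 0.145 against 2.79, 2.69, 3.04 and 2.58. MI library 5 was the lowest of the MI libraries for these 3 genes. Cxcl12, Gja5, Nos3, Selp, Cd36 and Fabp4 were the other members with no overlap besides Vwf, with log2 differences from 0.70 for the fatty acid carrier Fabp4 to 1.15 for the chemokine Cxcl12. With all 8 libraries the difference of Cxcl12 was -0.20 and that of Cd36 -0.08. Sham libraries 1 and 2 had Cxcl12 at 41.5 and 48.5, above every MI library. In that set 17 of the 24 genes were positive, beside 70.2% of all genes, and 3 had no overlap, beside 4.67%. The list's median there was 0.58, beside 0.39 for all genes. The remaining genes included the capillary marker Emcn at 23.1 and 23.8 against 27.6, 28.8, 24.9 and 21.6, and Kdr, the main receptor of VEGF-A, at 89.1 and 70.9 against 104, 70.4, 83.3 and 118. The list summed to 309 and 320 in the sham libraries and 378 to 550 in MI. In RNA of a sorted population, a different number of cells of a type and a different amount of RNA per cell cannot be told apart, here and for every cell type below.

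Transcripts shared by all endothelium had a smaller difference in the same direction in the 6 libraries. Of 17 genes, 15 had a positive difference and 4 were higher in every MI library, beside 8.89% of all genes. The median was 0.37, or 0.69 without sham library 3 and 0.14 without sham library 5. Tie1, an endothelial receptor kinase, was at 25.4 and 18.7 in sham and 39.1, 25.8, 32.3 and 33.2 in MI. Cdh5, which encodes the junction protein VE-cadherin, was at 148 and 142 against 228, 172, 185 and 149. Both genes had their lowest MI library within a few percent of the higher sham library. The endothelial genes Esam and Egfl7 also had no overlap, whereas the tight junction gene Cldn5 had a difference of -0.56. With all 8 libraries none of the 17 separated the groups, Cdh5 turned from 0.32 to -1.48 and Cldn5 to 1.02. In that set 12 of the 17 were positive, beside 70.2% of all genes, with a median of 0.29 beside 0.39 for all genes. Of 12 genes of the VEGF axis, Flt1 and Adamts3, the protease that activates VEGF-C, were higher in every MI library, beside 8.89% of all genes. Vegfc itself was at 3.67 and 8.91 against 4.25, 5.58, 5.81 and 2.75, with a log2 difference of -0.32 ± 0.45.

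Among 17 genes of lymphatic valves and flow, 15 had a positive difference with a median of 0.28, which was 0.43 without sham library 3 and 0.12 without sham library 5, with 11 of 17 positive. With all 8 libraries 11 of 17 were also positive, beside 70.2% of all genes, with a median of 0.57 beside 0.39 for all genes. Foxc2, the transcription factor of lymphatic valves, was at 2.62 and 1.99 against 2.79, 3.19, 2.82 and 3.36. The valve transcription factor gene Nfatc1 was at 71.0 and 69.2 against 84.4, 76.7, 78.2 and 94.3. These differences were small, 0.29 ± 0.45 and 0.24 ± 0.38. In the Notch list, the endothelial receptor gene Notch4 was at 2.15 and 1.45 against 7.39, 7.46, 5.58 and 3.15, and Notch1 at 33.7 and 33.8 against 54.9, 40.9, 50.7 and 37.4. Their target Hes1 went the other way, at 36.6 and 51.5 in sham and 15.2, 23.5, 18.6 and 24.8 in MI (log2 difference -1.07 ± 0.38, limma adjusted p = 1.00). All 4 MI libraries were on one side for these 3 of 10 tested genes, 2 higher and 1 lower, beside 8.89% and 7.27% of all genes. With all 8 libraries none of the 10 separated the groups. In the 6 libraries the list's median was 0.15. It was 0.27 without sham library 3, 0.08 without MI library 1 and -0.01 without sham library 5. Notch1 had a difference of 0.42 in the 6 libraries and -0.30 in all 8. Among 25 semaphorin and plexin genes, Sema3e, Sema4b, Plxnb1 and the Sema3e receptor Plxnd1 were higher in every MI library, beside 8.89% of all genes, and Sema3c was lower, beside 7.27%.

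Genes of the complement system had higher values in MI. Of 9 tested, 8 had a positive difference and 5 (C3, C4b, C1ra, C1s1 and Cd59a) were higher in every MI library, beside 8.89% of all genes. These 5 were also above all 4 sham libraries, beside 4.67% of all genes. C3, the central complement component (chromosome 17, 57203970 to 57228136), was at 172 and 94.9 in sham and 405, 392, 343 and 206 in MI, a log2 difference of 1.34 ± 0.39 (limma adjusted p = 0.887). C1s1, a protease of the first complement component, was at 4.75 and 6.38 against 17.8, 16.9, 22.4 and 17.8 (log2 difference 1.59 ± 0.40, limma adjusted p = 0.74). The MI libraries were tight for C1s1 and wider for C3, where library 5 was lowest. The exception was Cd55, which encodes a membrane protein that speeds the decay of complement enzymes, at 90.6 and 109 in sham and 45.9, 47.6, 56.1 and 63.1 in MI. The list's median was 0.68 and stood at 0.35 without sham library 5. With all 8 libraries 6 of 9 were positive, beside 70.2% of all genes, with a median of 1.08 beside 0.39 for all genes. C1s1, C1ra and C4b have close copies in the mouse genome, C1s2, C1rb and C4a, and reads shared between copies make the split between them uncertain.

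Among other immune genes, 11 of 12 genes of antigen presentation had a positive difference, with a median of 0.53. Of the 12, 3 (H2-T23, Tap1 and Cd74) were higher in every MI library, beside 8.89% of all genes. With all 8 libraries 9 of 12 were positive, beside 70.2% of all genes, and 2 had no overlap, beside 4.67%. The median was then 0.24, beside 0.39 for all genes. Genes of this family also share sequence. Cd74, the chaperone of MHC class II, was at 0.274 and 0.471 against 4.97, 3.45, 5.13 and 1.25. The interferon-induced gene Oasl2 was at 9.91 and 14.4 against 41.3, 28.9, 35.3 and 25.2, but 12 of 20 interferon genes had a positive difference and the median was 0.13, with 0.33 without sham library 3, 0.01 without MI library 1 and 0.06 without MI library 3. Immediate early genes, which respond within minutes to stress and to tissue digestion, had a positive difference in 19 of 22, with a median of 0.21 that was 0.12 without MI library 2, with 15 of 22 positive, and 0.40 without MI library 5. With all 8 libraries 13 of 22 were positive, beside 70.2% of all genes, with a median of 0.24 beside 0.39 for all genes. Fosb was at 176 and 166 against 435, 523, 394 and 213, while Fos, at 63.2 and 61.9 against 79.5, 86.2, 91.7 and 51.9, and Egr1 overlapped. Of 16 cytokine and adhesion genes, Selp (P-selectin) was the 1 member higher in every MI library, beside 8.89% of all genes. The chemokine genes Cxcl2 and Ccl2 were highest in MI library 2, at 14.6 and 40.1. Tnfaip3, which encodes an inhibitor of NF-kappaB signalling, was at 11.2 and 9.74 against 38.7, 36.6, 26.7 and 25.7, and was named because limma called it when only the neonatal libraries were fitted (adjusted p = 0.0315). Ptgs1, which encodes cyclooxygenase 1, was at 5.89 and 3.08 against 18.02, 12.5, 13.04 and 11.6, whereas Ptgs2, at 11.5 and 12.0 against 29.5, 31.8, 10.1 and 11.7, overlapped.

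Markers of other cell types did not all move in one direction. Fibroblast genes had lower values in MI: 12 of 14 had a negative difference, 4 (Gsn, Mfap5, Pi16 and Fap) were lower in every MI library, against 7.27% of all genes, and the median was -0.92. The matrix genes Dcn and Lum were at 306 and 120 in sham library 3 and at 774 and 297 in sham library 5. In MI libraries 1, 2 and 3 Dcn was at 296, 325 and 324 and Lum at 83.6, 128 and 108, and in MI library 5 they were at 126 and 31.9. Sham library 5 was thus the highest and MI library 5 the lowest, with the other 4 libraries close together. Without sham library 5, the library with 47.3% of its reads on Uqcrc1, the median of the list was -0.35, and without MI library 5 it was -0.65. With all 8 libraries it was -0.69, and 0.17 when values were scaled to the sum without mitochondrial genes and Uqcrc1. Mfap5, a microfibril gene of adventitial fibroblasts, was at 24.8 and 73.4 in sham and 16.1, 19.2, 18.4 and 7.80 in MI.

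Mesothelial and epicardial genes had higher values in MI. All 10 tested had a positive difference, 5 of them (Wt1, Upk3b, Krt18, Krt19 and Lrrn4) with no overlap, beside 8.89% of all genes higher in every MI library, and the median was 0.76, or 1.23 without sham library 3 and 0.42 without sham library 5. Wt1, a transcription factor of the epicardium that injured endothelium can also express, was at 8.14 and 4.49 against 15.9, 16.5, 13.6 and 13.7. The mesothelial genes Upk3b and Lrrn4 were at 6.71 and 10.3 in sham library 3, at 3.59 and 6.41 in sham library 5, and at 7.78 to 18.1 and 16.5 to 31.6 in MI. The list summed to 161 and 76.3 in sham and 110 to 246 in MI, and its part in the values of other genes was not tested.

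Endocardial genes had a positive difference in 4 of 5, with a median of 0.60; Npr3, a natriuretic peptide receptor of the endocardium, was at 6.79 and 5.00 against 14.8, 13.7, 7.98 and 9.22. Cardiomyocyte genes had a positive difference in 11 of 15, with a median of 0.34, or 0.21 without sham library 3. Of the 15, 3 were higher in every MI library, beside 8.89% of all genes. With all 8 libraries 8 of 15 were positive, beside 70.2% of all genes, with a median of 0.11 beside 0.39 for all genes. In the 6 libraries the summed value of cardiomyocyte genes was 228 to 294 in sham and 198 to 445 in MI, so the groups overlapped. Of 9 macrophage genes tested, 7 had a positive difference, with a median of 0.67 that was 0.45 without MI library 1 and -0.40 for members with values of at least 5, while the list summed to 69.4 to 85.5 against 49.1 to 81.6. Cd68, a lysosomal protein of macrophages, was at 13.8 and 11.8 in sham and 4.18, 6.21, 5.46 and 6.49 in MI, and Cd14 was at 0.738 and 0.145 against 5.27, 2.59, 2.44 and 1.00, so these 2 macrophage genes lay on opposite sides. The difference of Cd68 was -1.08 in the 6 libraries and 0.36 in all 8. None of 6 neutrophil genes and 1 of 9 lymphocyte genes was in the table. The globin gene Hbb-bs was at 0.401 and 0.181 against 3.04, 2.35, 3.66 and 1.38. Xist, expressed from the inactive X chromosome of females, ran from 436 to 922 and the Y-linked gene Ddx3y from 7.50 to 25.4 over the 6 libraries, and both overlapped between groups.

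**Figure D3:**
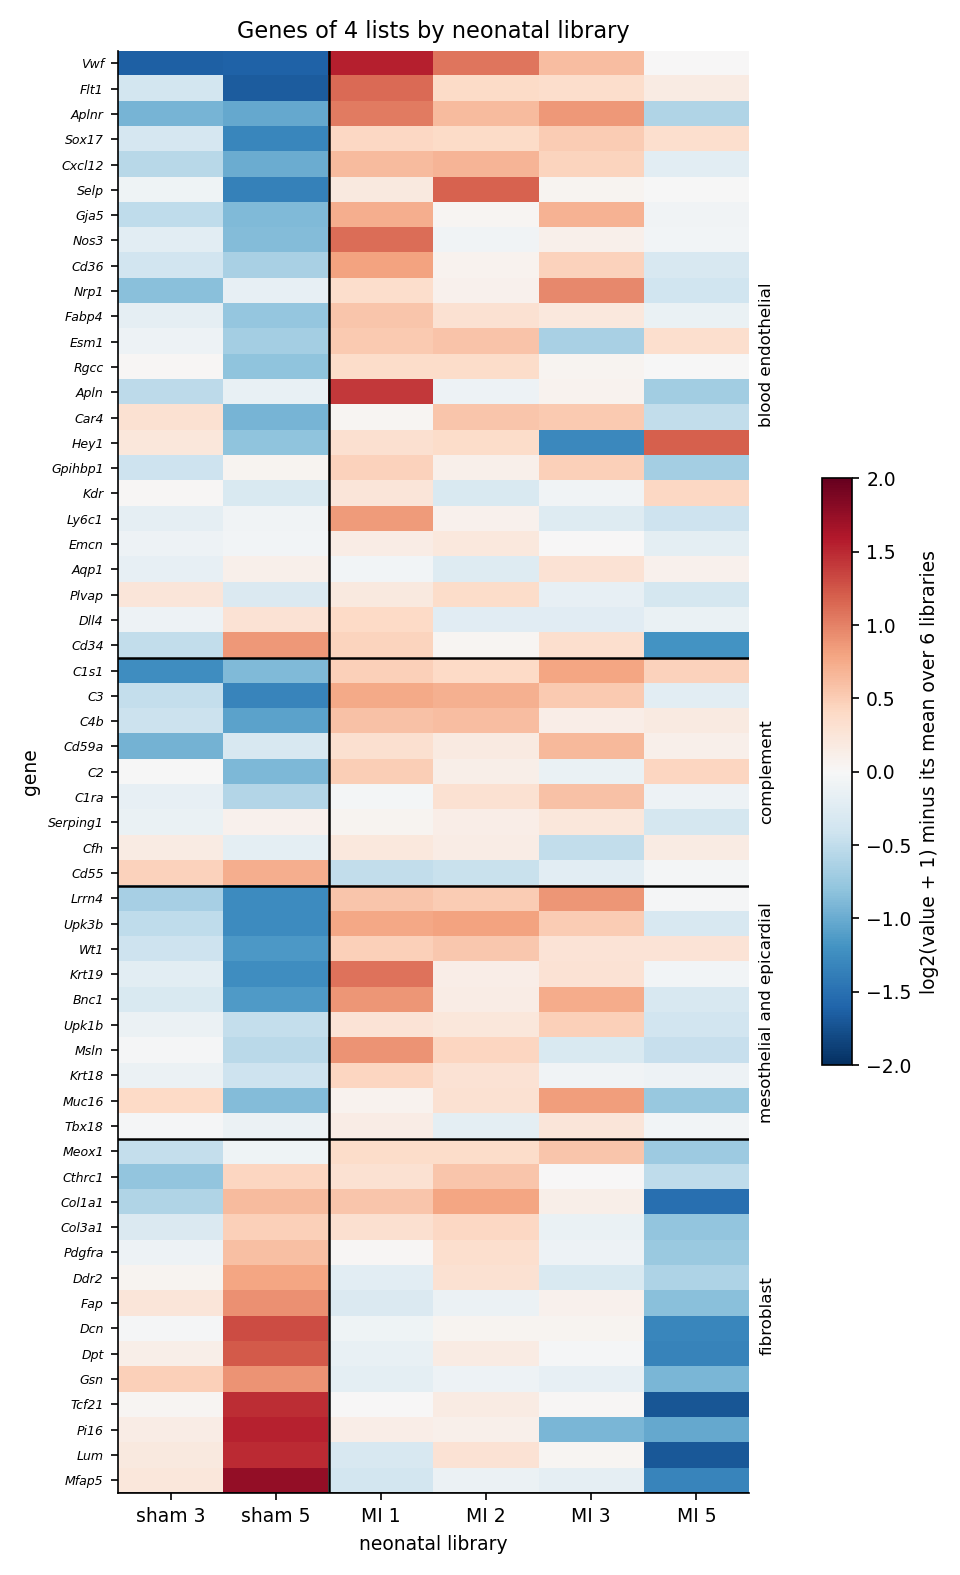
Heat map of log2(value + 1) minus its mean over the 6 neonatal libraries for the tested genes of the blood endothelial, complement, mesothelial and epicardial, and fibroblast lists; rows are genes, columns libraries, red is above and blue below the mean. The first 3 lists are lower in the 2 sham columns for most genes, and the fibroblast genes are highest in sham 5 and lowest in MI 5.

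Genes of the scar matrix did not separate the groups as lists. Of 26 genes of the interstitial matrix, 11 had a positive difference, with a median of -0.09 that ran from -0.59 without sham library 3 to 0.32 without sham library 5 and was 0.01 after quantile normalization. With all 8 libraries 19 of the 26 were positive, beside 70.2% of all genes, with a median of 0.27 beside 0.39 for all genes. Of 17 matricellular genes, 6 had a positive difference, with a median of -0.08. It was 0.24 without sham library 5 and 0.13 without MI library 5. With all 8 libraries the median was 0.30, beside 0.39 for all genes. Col1a1, the main chain of collagen I, was at 630.2 and 1492 in sham and 1412, 1657, 1043 and 338 in MI. Postn (periostin), a matrix protein of activated fibroblasts, was at 597 and 1222 against 561, 711, 491 and 327, and Tnc (tenascin C) at 73.0 and 74.4 against 95.5, 121, 72.1 and 75.1. These 3 genes overlapped between groups. Lox, which encodes the collagen cross-linking lysyl oxidase, was at 25.4 and 40.3 against 62.5, 89.1, 48.3 and 43.8, above both sham libraries (log2 difference 0.85 ± 0.39, limma adjusted p = 1.00). Timp1, which encodes an inhibitor of matrix metalloproteinases, was at 1.71 and 0.833 against 11.2, 10.6, 3.27 and 1.95, also with no overlap. Of 20 genes of the basement membrane, Col4a4, Col4a5, Lama3, Lama5 and Nid2 were higher in every MI library, beside 8.89% of all genes. Lama4, the main laminin alpha chain of endothelium, and Nid1 were lower in every MI library, beside 7.27% of all genes. Their log2 differences were -0.26 ± 0.22 and -0.30 ± 0.33.

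Cell division genes had mostly lower values in MI in the 6 libraries, a direction that was reversed with all 8. Neither set called any of them. Of 39 tested, 28 had a negative difference with a median of -0.18, and 6 (Top2a, Ccnb2, Cdk1, Cenpf, Tpx2 and Pcna) were lower in every MI library, against 7.27% of all genes. Mki67, the proliferation marker Ki-67, was at 291 and 332 in sham and at 210, 291, 262 and 246 in MI. Ccnb2, a cyclin of mitosis, was at 16.3 and 18.8 against 8.69, 12.5, 9.35 and 8.88 (log2 difference -0.78 ± 0.43, limma adjusted p = 1.00). Top2a, which untangles DNA in dividing cells, was at 110 and 113 against 97.7, 93.3, 81.4 and 109. The differences of Mki67 and Top2a, -0.31 ± 0.40 and -0.23 ± 0.40, were smaller than their errors, and without sham library 5 the list's median was -0.03, with 21 of 39 negative. With all 8 libraries 30 of 39 had a positive difference, beside 70.2% of all genes. The list's median was then 0.54 beside 0.39 for all genes, and none of the 39 was lower in every MI library. Ccnb2, at 0.239 and 0 in those libraries, then had a difference of 1.25, and Top2a one of 0.11.

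Of 22 growth factor genes, Fgf1, Pdgfa and Kitl were higher in every MI library and Igf2 and Hgf lower, beside 8.89% and 7.27% of all genes. In the set of 8 libraries Pdgfa, Kitl and Hgf turned, to -0.04, -0.14 and 0.43. Fgf1, a fibroblast growth factor, was at 5.57 and 1.96 against 8.24, 8.49, 16.6 and 10.4. Reln, a secreted protein of lymphatic endothelium that acts on heart muscle, was at 438 and 274 against 277, 218, 272 and 458, with no direction. Igfbp5, which binds insulin-like growth factors, was at 128 and 80.1 against 272, 222, 273 and 200.3 (log2 difference 1.24 ± 0.32, limma adjusted p = 0.757). Of 15 genes that respond to low oxygen, Hk2 and Eno1, both of glycolysis, were higher in every MI library, beside 8.89% of all genes. Vegfa was at 17.7 and 21.9 against 23.1, 15.1, 9.05 and 18.1. The median of the 15 genes was 0.15, and 0.08 without MI library 2 and 0.24 without sham library 3. It was 0.25 without MI library 3 and 0.26 without MI library 5. All 7 mitochondrially encoded genes in the table had a negative difference, with a median of -0.55, and none separated the groups; the median was -0.96 without sham library 3, -0.86 without MI library 3, -0.24 without sham library 5 and -0.20 after quantile normalization, with 2 of 7 positive. In the set of 8 libraries the median was -2.27, and all 7 had an unadjusted p under 0.05.

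In the adult hearts of the series the same surgery called 307 genes as higher (2.36%) and 139 as lower (1.07%) in the fit without shallow libraries, which has 4 sham and 3 MI libraries at P56. With all libraries these counts were 19 (0.143%) and 4 (0.0302%). In the fit without shallow libraries, genes that rose in adults were split in the neonate as all genes were. Of the 307 that rose in adults, 158 had a positive and 149 a negative difference at P1, with a median of 0.02 beside 0.02 for all genes, of which 52.2% were positive, and 21 were higher in every MI P1 library, a smaller share than the 8.89% of all genes. Of the 139 that fell in adults, 97 had a positive and 42 a negative difference at P1, with a median of 0.22. With all libraries the split was not even. Of the 19 that rose in adults, 18 were positive at P1, beside 70.2% of all genes. Their median was 0.93 beside 0.39 for all genes, and 3 were higher in every MI P1 library, beside 4.67%. Of the 4 that fell, 3 were positive at P1, with a median of 0.26. Across 13033 genes the neonatal and adult log2 differences, which share no library, had a Pearson r of -0.016, given as a description since genes are not independent. With all libraries r was 0.10 across 13243 genes. Adult and neonatal hearts also differed in digestion, pooling and sex, so age and these steps cannot be told apart.

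**Figure D4:**
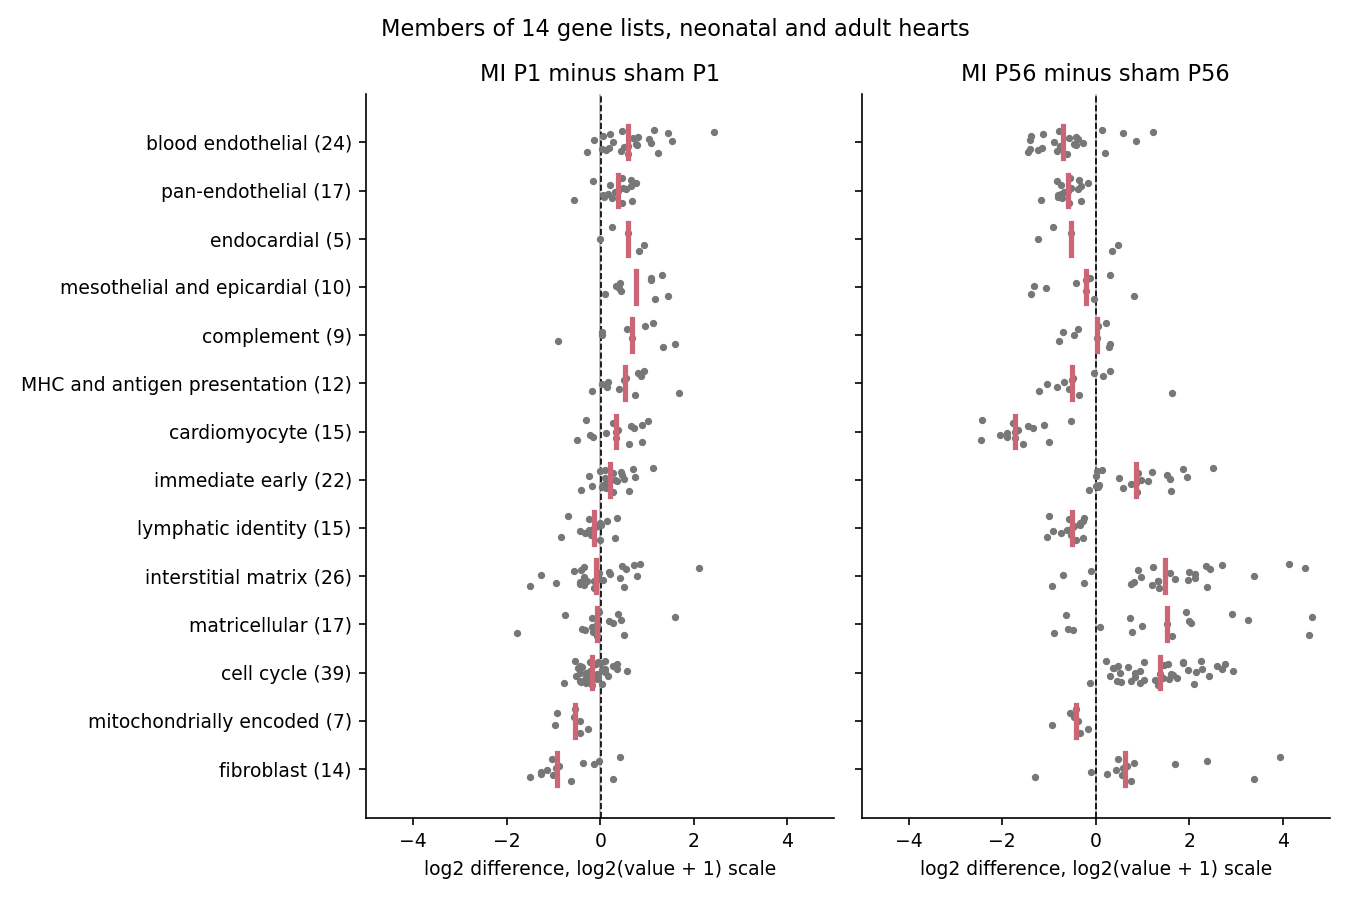
log2 difference of MI minus sham at P1 (left) and P56 (right) for the tested genes of 14 lists, in the fit without shallow libraries; each point is a gene, the red bar the list's median, the dashed line the median of all genes, and the number in brackets the genes tested. Blood endothelial genes have a median of 0.59 at P1 and -0.69 at P56, fibroblast genes -0.92 and 0.62, and cell cycle genes -0.18 and 1.37.

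The difference between the 2 responses was itself tested as an interaction of infarction with age. In the fit without shallow libraries 21 genes had a higher response at P1 (0.161%) and 42 a lower one (0.322%), and with all libraries 1 gene, Postn, had a lower one (0.00755%). Enpp2 had a difference of 2.19 ± 0.34 at P1 and -0.95 ± 0.30 at P56, an interaction of 3.14 ± 0.46 (limma adjusted p = 0.0054). Flt1 was at 1.52 ± 0.36 and -1.12 ± 0.32 (interaction 2.64 ± 0.48, limma adjusted p = 0.024), and the immunoglobulin family gene Btnl9 at 1.17 ± 0.28 and -1.70 ± 0.25 (interaction 2.87 ± 0.38, limma adjusted p = 0.0023). With all 8 neonatal libraries the difference of Btnl9 at P1 was -0.12. Of the blood endothelial list 1 gene of 24, Flt1, was called for the interaction, beside 0.161% of all genes. Synpo2 and Igfbp5 were called with a higher response at P1, and so were the cardiomyocyte genes Actc1, Tnni3 and Myh6 and the pericyte channel subunit gene Abcc9. Actc1 was at 1.01 ± 0.44 at P1 and -2.04 ± 0.39 at P56, and Abcc9 at 0.75 ± 0.38 and -1.79 ± 0.34. Of 15 cardiomyocyte genes, 12 were called lower in adult MI, beside 1.07% of all genes, and none was called at P1.

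Genes with a lower response at P1 included matrix and cell division genes. Tnc had a log2 difference of 0.27 ± 0.35 at P1 and rose by 4.62 ± 0.31 at P56 (limma adjusted p of the interaction 2.2e-04). Postn was at -0.76 ± 0.46 and 3.26 ± 0.40, and Lox at 0.85 ± 0.39 and 4.47 ± 0.35. Cthrc1, Col12a1, Fn1, Mfap5, Hgf and Cd68 were called as well. Of 39 cell division genes, 19 rose in adults, beside 2.36% of all genes. For the interaction 8 of the 39 were called, beside 0.161% of all genes called higher and 0.322% lower. Among them were Anln at -0.44 ± 0.36 and 2.77 ± 0.32 (limma adjusted p = 0.0057) and Mki67 at -0.31 ± 0.40 and 2.13 ± 0.36 (limma adjusted p = 0.049). These calls rest on the 2 sham P1 libraries: without sham library 3 there were 15 and without sham library 5, which leaves 1 sham library at P1 whose spread is taken from the other groups, there was 1, Tnc (limma adjusted p = 0.0065). Leaving out MI P1 library 1, 2, 3 or 5 left 6, 40, 11 or 33, leaving out adult MI library 1 or 3 left 30 or 7, and leaving out adult sham library 5 left 28, while 228 were called without adult sham library 2.

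**Figure D5:**
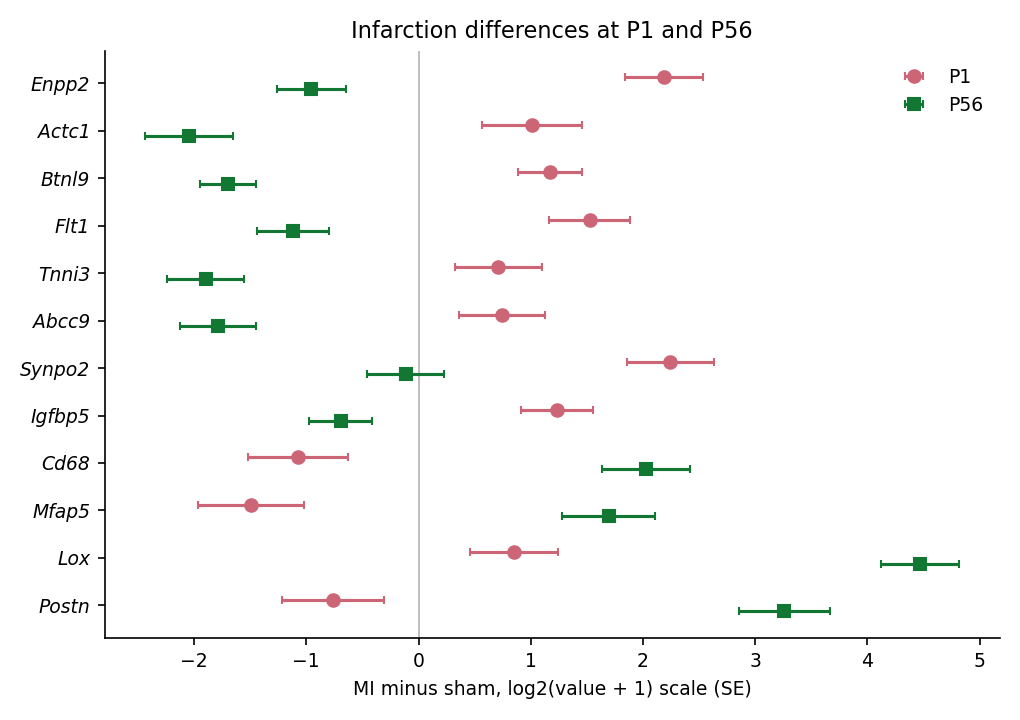
log2 difference of MI minus sham at P1 (red circles) and at P56 (green squares), with SE, for 12 described genes called for the interaction in the fit without shallow libraries. Enpp2 stands at 2.19 and -0.95, and Postn at -0.76 and 3.26.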

How the data were processed

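RNA was amplified and sequenced as single reads, per the labels' protocols. The submitters' processing notes name Trimmomatic, STAR, HTSeq, edgeR and mm10 (GRCm38); versions, and whether counting used strand, are not given in the sources used here, so overlapping genes may share reads. The authors deposited a scaled signal per gene that the labels call CPM, though the columns differ in sum. These values equal edgeR CPM with TMM scaling to within 9.7e-09%, and 100% were whole reads times 1 constant per library within 0.01 read. The plan had assumed plain CPM; limma was kept as the main test and count tests on the recovered reads are alternatives. The columns numbered 5 match no sample title by number, so these 4 were used by group only.

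A gene entered the test if 4 or more libraries had a value of 1 or higher; it was tested on log2(value + 1) with limma-trend (limma 3.58.1, R 4.3.3), 4 groups in 1 fit, with all 16 libraries and with the 13 that had at least 10000 genes above 0. Contrasts compared MI with sham at P1, at P56, and between the ages (interaction), with a call at a Benjamini-Hochberg adjusted p under 0.05, two-sided. This scale understates differences of genes with low values. Alternatives, which include edgeR 4.0.16 and DESeq2 1.42.0, are in the closing section. The comparison, its members and the 43 gene lists (668 symbols, of which 609 were in the table) were chosen with earlier results of these data known. Genes were named by rule: per fit and direction up to 8 called genes or those of smallest p with no overlap, up to 3 of smallest p per list, lineage genes, and genes of count tests; others were named as list members, for the interaction, or after their values were seen. Intervals are SE of the fit, limited by 2 sham libraries in the reduced set. No pair of libraries was a duplicate by a chi-square test of counts.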

Additional observations from a re-analysis of the deposited data

Results flagged for a closer look

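A gap test within each group of 4 neonatal libraries, run on the genes described, marked 9 values in 136 groups of values; chance marks about 1 group in 20. In the MI group these were Nov at 13.5 in library 1, Egfl7 at 23.9 in library 3, Selp at 9.82 in library 2, Gsn at 9.09 in library 5 and Actc1 at 11.7 in library 5. In the sham group they were Ggcx at 185 and Aplnr at 0.120 in library 1, and Hbb-bs at 16.2 and Pcna at 8.08 in library 2, where 1 read equals a value of 4.04. All 4 sham values lie in the 2 libraries under 10000 genes.

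The response to infarction differed between P1 and P56 by the interaction test in the fit without shallow libraries for 12 of the genes followed through every alternative. The response at P1 minus that at P56 was 3.14 for Enpp2, 3.05 for Actc1, 2.87 for Btnl9, 2.64 for Flt1, 2.61 for Tnni3, 2.54 for Abcc9, 2.36 for Synpo2 and 1.93 for Igfbp5 on the log2 scale. It was -3.10 for Cd68, -3.19 for Mfap5, -3.62 for Lox and -4.02 for Postn. Without sham P1 library 5 none of the 12 was called; Enpp2 then had a limma adjusted p of 0.0942 and Btnl9 of 0.0914.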

How the results depend on the processing

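For the 6 libraries, limma called 1 gene with a minimum value of 5, 2 with a pseudocount of 0.25, 2 after quantile normalization, 1 after scaling to the sum without mitochondrial genes and Uqcrc1, 8 in a fit of only the neonatal groups, 8 with library weights and 2 when sham P56 library 2 was also left out, an alternative chosen after seeing the data; DESeq2 called 7. Enpp2 was among them in all 8 of these settings, Synpo2 in 6, Vwf in 3 and Nov in 2. No filter, a pseudocount of 4, median-of-ratios rescaling and edgeR called 0, as did leaving out each neonatal library in turn. With all libraries the counts were 2 after quantile normalization, 2 after the scaling to the sum, 70 with library weights (45 higher, 25 lower), 262 with DESeq2, and 0 to 3 over single libraries left out, with 3 without sham library 3. Interaction calls, 63 without shallow libraries, ran from 1 to 228 over single libraries left out, the highest without sham P56 library 2, in alternatives also chosen after seeing the data. A replicate block gave 0 calls in both sets. Same-numbered libraries deviated from their group means with correlations of -0.32 to -0.013. This check cannot decide whether the numbers pair the libraries. The reduced set has 2 sham P1 libraries, whose deviations mirror each other, and the full set includes the shallow sham libraries. Within each set of libraries, none of the genes refitted there turned its sign under the alternatives, while list medians near 0 did; between the sets several genes turned, among them Cxcl12, Btnl9, Cd36, Ccnb2 and Cd68, which were refitted only without the shallow libraries. Depth limits sham library 2 most: its values below 12.1 rest on fewer than 3 reads.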
